A study of Rattus norvegicus with 11 samples.

Results

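Convoluted proximal tubule cells, named PCT in the authors' annotation, made up 36543 of the 114615 kidney cells in a droplet-based single-cell RNA sequencing series, or 31.9%. They were taken as the cells whose deposited type name is exactly PCT, so that 13931 cells of the joint name PCT/PST and 8032 cells named PST (straight proximal tubule) are not among them. The cells came from 11 male ZSF1 rats, 12 weeks old on arrival, all labelled with the genotype ZSF1-LeprfaLeprcp/Crl and all fed a high-energy chow. The groups were 4 lean rats with no treatment, 4 obese rats with the treatment given as none, and 3 obese rats that drank enalapril, an inhibitor of the angiotensin-converting enzyme. Obese rats were assigned at random to vehicle or enalapril in the drinking water, and what the lean rats drank is not stated in the sources used here. ZSF1 rats are a hybrid strain in which the obese animals carry defective leptin receptor alleles from both parental lines and become obese, diabetic and proteinuric.

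The convoluted proximal tubule takes back most of the glucose, amino acids, bicarbonate, phosphate and filtered protein that enter the nephron. Its cells carry a dense brush border and are packed with mitochondria, which supply the ATP for sodium transport, and they live mainly on fatty acid oxidation. A glucose transporter of low affinity and high capacity, encoded by Slc5a2, and the endocytic receptor megalin, encoded by Lrp2, are among the genes by which they are known. The table used here has 1 line per cell and no gene columns, so that the level of Slc5a2, Slc5a12 or Lrp2 in cells named PCT could not be checked, and no gene is described below. Each cell has its count of unique molecular identifiers (UMIs, 1 per captured transcript molecule) and its number of genes with a UMI. It also has a deposited percent of UMIs from mitochondrial genes, which was made from other totals than the deposited UMIs. An S and a G2M score with the cell cycle phase called from them, and a position on a 2-dimensional map, complete the line.

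PCT numbered 3719, 1058, 2023 and 2364 cells in lean rats 1 to 4, 2743, 1280, 2422 and 5976 in obese rats 1 to 4, and 7671, 4502 and 2785 in treated rats 1 to 3. Values are given in this order of rats throughout. They carried 32.8% of all UMIs in the table. In 11 of 11 rats PCT was the most numerous of the named types.

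The library of lean rat 2 stood apart. Its PCT cells had a median of 428.5 UMIs and 99.7% of them were under 1000 UMIs, against 7.99% to 23.9% in the other lean rats. Treated rat 1 was the next shallowest, with 39.8% of PCT cells under 1000 UMIs. Differences from the lean group are therefore given with and without lean rat 2 where leaving it out moved them most. Labels state that 10000 cells were loaded per reaction, while 6 of the 11 libraries hold more cells than that, up to 18427 in obese rat 4 and 17948 in treated rat 1. How doublets were handled is not stated in the sources used here, and none could be called without gene values. Of 112971 barcodes, 1634 (1.45%) were found in more than 1 library, and 1009 PCT cells (2.76%) had a barcode that another library also holds. No pair of libraries shared more than 0.681% of the cells of the smaller one. Sample codes in the labels share a stem in 10 of the 11 rats: lean 1 and 2, lean 3 and 4, obese 1 and 2, obese 3 and 4, and treated 1 and 2. What the stem stands for is not stated in the sources used here. No stem spans 2 groups, so that its part in a difference between groups cannot be told apart from the group, and the tests take rats as independent.

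Among all cells, PCT took 33.4%, 25%, 26.3% and 36.5% across the lean group, 25.3%, 18.2%, 21.0% and 32.4% across the obese group, and 42.7%, 39.3% and 35.7% across the treated group. The 3 treated rats all lay above the 4 obese rats, while lean and obese rats overlapped. The exact 95% binomial interval of a single rat, which covers counting error only, ran from 23.7% to 26.3% in lean rat 2 and from 31.8% to 33.1% in obese rat 4, far narrower than the spread between rats. By edgeR's quasi-likelihood test on cell counts, the log2 difference was -0.32 ± 0.35 (SE) for obese minus lean rats (adjusted p = 0.406) and 0.70 ± 0.37 for treated minus obese rats (adjusted p = 0.337). For treated minus lean rats it was 0.37 ± 0.37 (edgeR, adjusted p = 0.503). Without lean rat 2 the first was -0.40 ± 0.43 (edgeR, adjusted p = 0.410). None of the 3 differences of PCT passed, where 12 of 20 types (60%), 0 of 20 (0%) and 3 of 20 (15%) did. In the comparison of treated and obese rats 2 types had an unadjusted p under 0.05, DESeq2 called 1 of 20 and limma on logit shares 0. A share of dissociated cells cannot tell fewer cells of a type in the kidney from fewer that came through digestion and dead-cell removal.

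**Figure D1:**
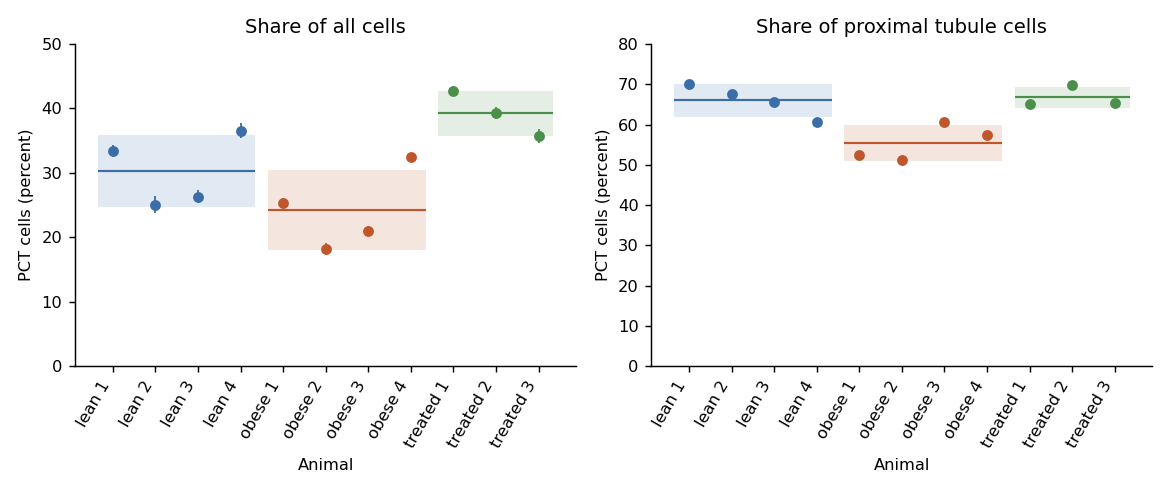
PCT share of all cells (left) and of proximal tubule cells (right) in percent, 1 point per rat, with the group mean as a line and 1 SD to each side as a shaded box. Vertical bars on the left are exact 95% binomial intervals; the treated rats lie above every obese rat in both panels, and the obese rats lie below every lean rat only on the right.

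Immune cells enter that denominator, so the share was also taken over the other cells. It was 40.5%, 27.1%, 32.6% and 40.1% in lean animals, 36.8%, 29.2%, 32.2% and 49.0% in obese animals, and 50.1%, 47.4% and 45.6% in enalapril-treated animals. Lean and obese rats overlapped throughout, with a log2 difference of 0.07 ± 0.31 (edgeR, adjusted p = 0.878), of the opposite sign to that over all cells. Without lean rat 2 it was -0.04 ± 0.37 (edgeR, adjusted p = 0.922), so that the change of sign rested on that library. The 3 treated rats lay above the 4 lean rats, and the test gave 0.44 ± 0.34 against lean (edgeR, adjusted p = 0.335) and 0.37 ± 0.34 against obese rats (edgeR, adjusted p = 0.850). Of 15 types in this fit, 20% passed in edgeR for obese and for treated against lean rats and 0% for treated against obese rats, where 1 had an unadjusted p under 0.05 and DESeq2 also called 0.

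Within the proximal tubule, lean and obese rats did not overlap. PCT made up 70.2%, 67.7%, 65.5% and 60.7% of PCT, PCT/PST and PST cells together for the lean rats, 52.3%, 51.1%, 60.6% and 57.4% for the obese ones, and 65.1%, 69.8% and 65.3% for those on enalapril. The obese rats all lay below the lean rats, by the narrow margin of 60.6% against 60.7% at the nearest, and the treated rats all lay above the obese rats. Means were 66.0% ± 4.03 (SD, n = 4), 55.3% ± 4.43 (n = 4) and 66.7% ± 2.70 (n = 3). The log2 difference was -0.25 ± 0.11 for obese minus lean rats and did not pass after adjustment (edgeR, adjusted p = 0.0754). Treated rats differed from obese rats by 0.27 ± 0.11 (edgeR, adjusted p = 0.158) and from lean rats by 0.02 ± 0.11 (edgeR, adjusted p = 0.893). In the same fit the share of PST rose from lean to obese rats by 1.42 ± 0.22 (edgeR, adjusted p = 0.00100), while that of PCT/PST differed by -0.13 ± 0.14 (edgeR, adjusted p = 0.383). PST numbered 133 to 378 cells in lean and 607 to 1507 in obese rats, and these cells are in the denominator of the PCT share. Rats that share a code stem lay close in the obese group, at 52.3% and 51.1% and at 60.6% and 57.4%. In these fits 4 of 17 types (23.5%), 1 of 17 (5.88%) and 5 of 17 (29.4%) passed. DESeq2 on the same counts called the first difference (-0.25 ± 0.09, adjusted p = 0.0250) and the second (0.27 ± 0.10, adjusted p = 0.0330), so that these calls turned on the tool, and it called 8 and 4 of the 17 types. An exact two-sided permutation test of obese against lean rats gave p = 0.0286, the smallest that 4 against 4 allows, and 0.121 after adjustment. Without lean rat 2 the edgeR difference was -0.24 ± 0.12 (adjusted p = 0.115).

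PCT cells had a median of 2036 UMIs, from 228 to 18485. Per rat the median was 1533, 428.5, 2460 and 2556 UMIs across the lean group, 2006, 1629.5, 3169.5 and 2325 across the obese group, and 1282, 3065 and 3223 across the treated group. The groups overlapped, and rats within a group differed more than the groups did. On the log2 scale obese rats differed from lean rats by 0.64 ± 0.64 (limma, adjusted p = 0.400), which came down to 0.06 ± 0.38 (limma, adjusted p = 0.930) without lean rat 2. Treated rats differed from obese rats by 0.07 ± 0.69 (limma, adjusted p = 0.916) and from lean rats by 0.71 ± 0.69 (limma, adjusted p = 0.631), or 0.13 ± 0.41 (limma, adjusted p = 0.974) without lean rat 2. Of the 16 types with at least 20 cells in every rat, 0% passed in each comparison, with 3, 0 and 1 types at an unadjusted p under 0.05. Exact permutation tests, run for obese against lean rats, called 0 of 16, but with 4 against 4 rats they may not reach the threshold after adjustment. All 16 were higher in obese than in lean rats, with a median difference of 0.92. Lean rat 2 is included there, and its library was shallow beyond PCT. Over its types with at least 20 cells the median was 380 UMIs, against 1533, 2406.5 and 2017 in lean rats 1, 3 and 4.

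Genes per cell followed UMIs. The median was 689, 253, 950 and 1046.5 genes in lean animals, 812, 696, 1218.5 and 903 in obese animals, and 624, 1136 and 1094 in enalapril-treated animals. Differences on the log2 scale were 0.46 ± 0.51 for obese minus lean (limma, adjusted p = 0.493), 0.05 ± 0.55 for treated minus obese (limma, adjusted p = 0.951) and 0.51 ± 0.55 for treated minus lean rats (limma, adjusted p = 0.782), and again 0% of 16 types passed in each. At an unadjusted p under 0.05 there were 2, 0 and 1 types. Exact permutation tests of obese against lean rats called 0, with the same limit as for UMIs. Without lean rat 2 the first difference was 0.01 ± 0.29 (limma, adjusted p = 0.990) and the last 0.06 ± 0.31 (limma, adjusted p = 0.949). Across the PCT cells of 1 rat, Spearman's rho of UMIs and genes was 0.801 in lean rat 2 and 0.951 to 0.978 in the other rats. This is a description, since both are read from the same molecules of the same cells.

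Within a common range of depth, not matched further, the groups overlapped in gene number. Among PCT cells with 1000 to 2000 UMIs, the median number of genes was 620, 650 and 694 in lean rats 1, 3 and 4, 622, 619, 673 and 663 in the obese group, and 689.5, 709 and 621 under enalapril. Lean rat 2 had 3 PCT cells in that range and gave no value.

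A high mitochondrial share is a known feature of proximal tubule cells, and PCT of lean and obese rats did not overlap in it. The median percent of UMIs from mitochondrial genes was 14.6%, 1.45%, 16.0% and 11.6% for the lean rats, 23.2%, 24.2%, 18.7% and 19.9% for the obese ones, and 6.78%, 16.5% and 24.0% for those on enalapril. The obese rats all lay above the lean rats, and the treated rats spanned both groups. By code stem, obese rats 1 and 2 lay above obese rats 3 and 4, while lean rats 1 and 2, which share a stem, were far apart. Means were 10.9% ± 6.56 (SD, n = 4), 21.5% ± 2.62 (n = 4) and 15.8% ± 8.64 (n = 3). Obese rats were higher than lean rats by 10.6 percentage points ± 4.07, and the difference did not pass after adjustment (limma, adjusted p = 0.128). The exact two-sided permutation test gave p = 0.0286, the smallest it allows, and 0.114 after adjustment. Leaving out lean rat 2 gave 7.44 ± 3.76 percentage points (limma, adjusted p = 0.419), and leaving out treated rat 1, which enters the shared estimate of spread, gave 10.6 ± 3.37 (limma, adjusted p = 0.0488). All 16 types were higher in obese than in lean rats, by a median of 5.28 percentage points, and 1 of them (6.25%) passed. Lean rat 2 is included there, with a median of 1.45% over its types with at least 20 cells. In lean rats 1, 3 and 4 that median was 9.32%, 11.3% and 9.43%.

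Enalapril-treated rats were lower than obese rats by a difference of -5.74 ± 4.40 percentage points (limma, adjusted p = 0.605), where 0 of 16 types passed (0%) and 1 had an unadjusted p under 0.05. That value rested on treated rat 1: without it the difference was -1.25 ± 4.13 (limma, adjusted p = 0.981). Against lean rats the treated rats differed by 4.85 ± 4.40 percentage points (limma, adjusted p = 0.832), with 1 of 16 types called (6.25%). Without treated rat 1 that difference was 9.34 ± 4.13 (limma, adjusted p = 0.237), and without lean rat 2 it was 1.70 ± 4.02 (limma, adjusted p = 0.990).

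**Figure D2:**
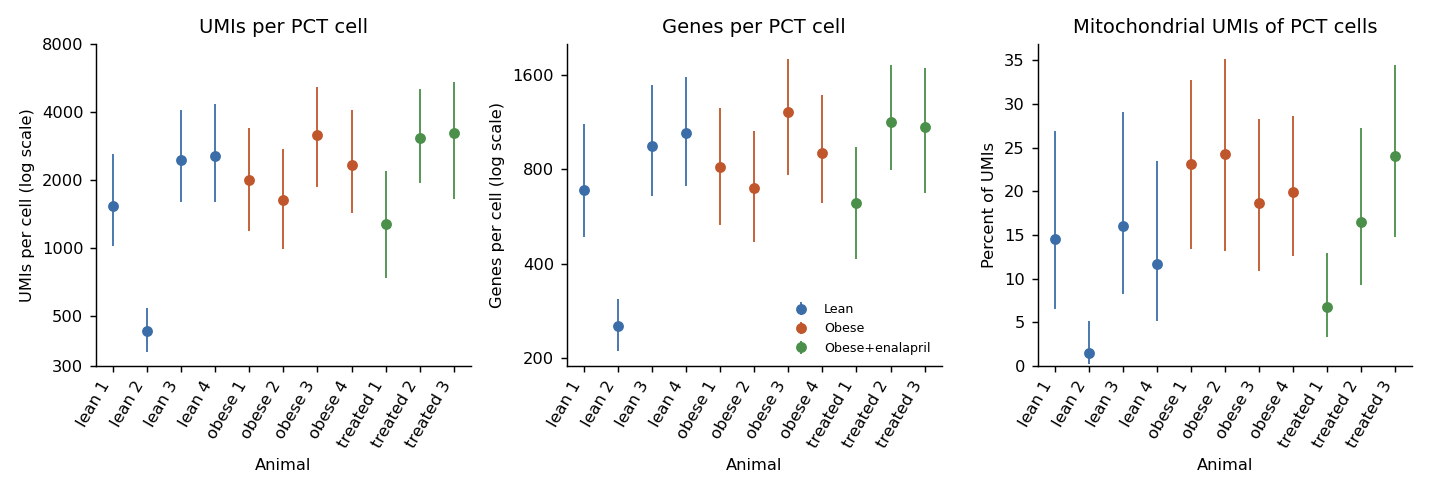
UMIs per PCT cell and genes per PCT cell (both on logarithmic axes) and the percent of UMIs from mitochondrial genes in PCT cells, with the median of each rat as a point and the interquartile range as a bar. Lean rat 2 lies apart at 428.5 UMIs, 253 genes and 1.45%, and the 4 obese rats lie above the 4 lean rats in median mitochondrial percent.

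The low side of the distribution showed the same order. PCT cells under 10% mitochondrial UMIs were 36.8%, 89.0%, 32.7% and 45.0% of PCT cells across the lean group, 17.2%, 17.3%, 21.8% and 18.1% across the obese group, and 64.6%, 27.4% and 12.2% across the treated group. Obese rats all lay below the lean rats and close to each other, while the treated rats ran from the lowest of all to above 3 of the 4 lean rats. The obese minus lean difference was -32.3 ± 14.1 percentage points (limma, adjusted p = 0.171), and -19.6 ± 13.9 (limma, adjusted p = 0.797) without lean rat 2. It passed without treated rat 1, at -32.3 ± 11.8 (limma, adjusted p = 0.0490). Treated rats differed by 16.1 ± 15.2 from obese rats (limma, adjusted p = 0.581) and by -16.2 ± 15.2 from lean rats (limma, adjusted p = 0.974), or -3.44 ± 14.8 (limma, adjusted p = 0.994) without lean rat 2. Of 16 types 12.5%, 0% and 6.25% passed in these comparisons by limma, and 3, 0 and 2 types had an unadjusted p under 0.05. At the high side, PCT cells of at least 30% were 20.2%, 0.189%, 23.1% and 17.1% in lean animals, 32.8%, 37.0%, 21.3% and 22.0% in obese animals, and 3.69%, 20.5% and 34.9% in enalapril-treated animals, so that lean and obese rats overlapped there. No PCT cell exceeded 49.97%, but no cell of any type exceeded 49.99% either, so that this ceiling is not particular to PCT. The most genes in any cell were 2971. The upper ends of both distributions may thus have been cut before deposit, which was not tested.

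Inside each rat, deeper PCT cells tended to have a lower mitochondrial percent, hardly so in obese rat 4. Spearman's rho of UMIs and mitochondrial percent across PCT cells of 1 rat ran from -0.548 in treated rat 1 to -0.0552 in obese rat 4, and it was below 0 in 11 of 11 rats. Both are read from the molecules of the same cells, so rho is given as a description. In cells of at least 4000 UMIs the median was 4.68%, 10.4% and 8.33% in lean rats 1, 3 and 4, 18.0%, 12.7%, 14.0% and 16.1% in the obese group, and 2.80%, 12.6% and 19.0% under enalapril. Obese rats lay above these lean rats also there, and the same held from 2000 to under 4000 UMIs, where lean rats were at 10.5%, 17.8% and 13.3% and obese rats at 20.2%, 21.6%, 20.2% and 22.6%. From 1000 to under 2000 UMIs they overlapped, with 19.4%, 24.3% and 18.5% in lean and 27.6%, 26.5%, 22.4% and 22.7% in obese rats. Under 1000 UMIs, where lean rat 2 has a value, the groups also overlapped. Lean rats were there at 18.5%, 1.46%, 10.1% and 7.06%, and obese rats at 25.8%, 28.6%, 21.8% and 16.2%.

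Lean rat 2 drops out of comparisons limited to cells of at least 1000 UMIs. These are thus to be set beside the 7.44 percentage points found without it at full depth. Among cells of at least 1000 UMIs the obese minus lean difference was 6.73 ± 3.94 percentage points (limma, adjusted p = 0.708), and among cells of 1000 to 2000 UMIs it was 4.10 ± 4.83 (limma, adjusted p = 0.556). Treated rat 1 was the lowest of all rats in each of the 3 ranges from 1000 UMIs up, at 6.17%, 3.48% and 2.80%, while treated rat 3 was the highest in them, at 30%, 25.8% and 19.0%. The SD of the 3 treated rats was 12.1, 11.6 and 8.15 percentage points in these ranges, beside 8.64 over all cells.

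**Figure D3:**
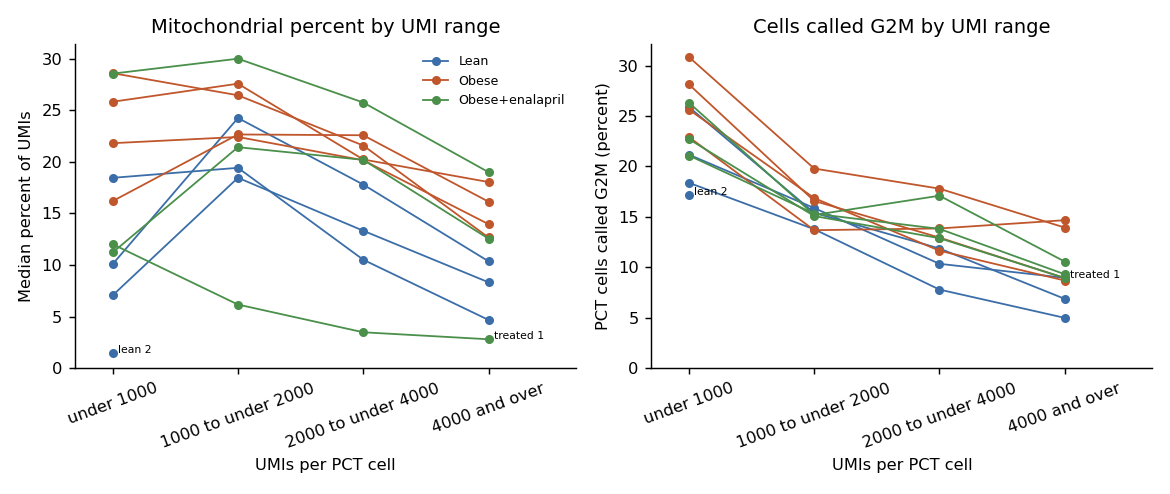
Median percent of mitochondrial UMIs (left) and percent of cells called G2M (right) in PCT cells within 4 ranges of UMIs per cell, 1 line per rat coloured by group, from ranges of at least 20 cells. Above 2000 UMIs the obese rats lie above lean rats 1, 3 and 4 on the left, and G2M calls are lower at 4000 UMIs and over than under 1000 UMIs in the 10 rats with both ranges.

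The phase of each cell was set by its scores: G1 where both were below 0 and otherwise the higher one, without exception in the table. A phase called this way does not by itself show a dividing cell. Cells called S were 24.8%, 9.17%, 26.5% and 27.4% of PCT cells for the lean rats, 27.1%, 26.3%, 28.7% and 30.4% for the obese ones, and 20.5%, 29.4% and 23.4% for those on enalapril. Lean rat 2 was the lowest of all, and the other rats overlapped across groups. Differences were 6.17 ± 5.63 percentage points for obese minus lean (limma, adjusted p = 0.526), -3.67 ± 6.08 for treated minus obese (limma, adjusted p = 0.913) and 2.50 ± 6.08 for treated minus lean rats (limma, adjusted p = 0.936). None of 16 types passed (0% in each), with 1, 0 and 1 at an unadjusted p under 0.05. Exact permutation tests of obese against lean rats called 0, with the same limit as for UMIs. Without lean rat 2 the first was 1.91 ± 3.36 (limma, adjusted p = 0.785) and the last -1.76 ± 3.59 (limma, adjusted p = 0.897).

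Cells called G2M were 12.4%, 17.2%, 12.8% and 12.4% of PCT cells across the lean group, 15.4%, 16.2%, 17.8% and 15.1% across the obese group, and 17.4%, 12.8% and 15.1% across the treated group. Obese rats lay above lean rats 1, 3 and 4, and lean rat 2 lay inside their range. The difference of obese minus lean rats was 2.41 ± 2.34 percentage points (limma, adjusted p = 0.495), or 3.57 ± 2.39 (limma, adjusted p = 0.271) without lean rat 2, and 3 of 16 types (18.8%) passed in that comparison. Treated rats differed from obese rats by -1.02 ± 2.53 (limma, adjusted p = 0.847) and from lean rats by 1.39 ± 2.53 (limma, adjusted p = 0.854; 2.55 ± 2.55 and 0.615 without lean rat 2), where 0% of types passed, with 3 and 1 at an unadjusted p under 0.05.

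Mean G2M scores of PCT cells were -0.0343, -0.0186, -0.0327 and -0.0343 in lean animals, -0.0293, -0.0264, -0.0266 and -0.0279 in obese animals, and -0.0279, -0.0318 and -0.0285 in enalapril-treated animals. With all rats, the obese minus lean difference was 0.00240 ± 0.00389 (limma, adjusted p = 0.742), with 1 of 16 types called (6.25%). Without lean rat 2 it was 0.00617 ± 0.00203 and passed (limma, adjusted p = 0.0363), so that this call depends on that library. The mean S score was -0.00844 in lean, -0.00574 in obese and -0.00870 in treated rats, and 3 of 4 obese rats lay above every lean rat. The obese minus lean difference was 0.00270 ± 0.00183 (limma, adjusted p = 0.285; 0.00343 ± 0.00185 and 0.186 without lean rat 2), with 0 of 16 types called (0%) and 6 at an unadjusted p under 0.05.

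Phase calls moved with depth. In PCT cells under 1000 UMIs, G2M calls were 17.2% to 25.9% in lean, 22.9% to 30.8% in obese and 21.1% to 26.3% in treated rats. In cells of at least 4000 UMIs they were 4.99% to 8.96%, 8.69% to 14.7% and 8.94% to 10.6%. The fall from the shallowest to the deepest range was seen in each of the 10 rats that had both. S calls ran the other way, from 9.19% to 18.5% under 1000 UMIs to 23.5% to 36.7% at 4000 UMIs and more. The rise was not steady: treated rats averaged 30.5% from 2000 to under 4000 UMIs and 24.9% at 4000 and over. The S score itself did not rise with depth. Across PCT cells of 1 rat, Spearman's rho with UMIs ran from -0.293 to -0.0698 for the S score. For the G2M score it ran from -0.231 to -0.117, both as descriptions. A share of phase calls in PCT is therefore read only beside the depth of its cells. Among PCT cells with 1000 to 2000 UMIs, where lean rat 2 gave no value, lean and obese rats overlapped in G2M calls. Lean rats 1, 3 and 4 were at 13.8%, 15.4% and 15.8%, and obese rats at 16.8%, 13.6%, 19.7% and 16.6%. In S calls of that range the obese rats, at 26.1%, 25.7%, 29.1% and 26.6%, lay above those lean rats. The lean values were 23.2%, 25.3% and 24.9%, so that the margin was narrow.

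High scores were rare. An S score over 0.1 was found in 200 PCT cells (0.547%), which put PCT at place 19 of 21 types, and a G2M score over 0.1 in 99 cells (0.271%), at place 17. Both scores were over 0.1 in 15 cells. T cells ranked first, at 7.33% and 14.7%. The PCT share with an S score over 0.1 was 0.403%, 0.284%, 0.346% and 0.508% for the lean rats, 0.510%, 0.703%, 0.908% and 0.753% for the obese ones, and 0.600%, 0.333% and 0.431% for those on enalapril. The obese rats lay above the lean rats, at the nearest by 0.510% against 0.508%, and this was not among the tests. These shares rest on 3 to 15 cells per lean rat and 9 to 45 per obese rat. The nearest pair was 14 cells in obese rat 1 and 12 in lean rat 4.

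Against the most similar names, PCT/PST and PST, PCT cells were set side by side within each rat. These are descriptions, since the names were given from genes of the same cells. PCT had more UMIs than PCT/PST in 11 of 11 rats, with a median difference of 688 UMIs, and more genes in 11 of 11. It had more UMIs than PST in 8 and more genes in 10 of 11 rats, with median differences of 188 UMIs and 82 genes.

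The mitochondrial share set PCT apart from PCT/PST but not from PST. In PCT/PST cells the median was 4.54%, 0%, 2.32% and 0.940% across the lean group, 4.43%, 10.5%, 6.56% and 1.57% across the obese group, and 0.836%, 0.662% and 8.05% across the treated group. PCT was higher in every rat, by 1.45 to 18.7 percentage points and a median of 13.7. In PST cells the median was 17.7%, 2.21%, 18.8% and 17.4% in lean animals, 27.3%, 24.0%, 18.0% and 20% in obese animals, and 5.11%, 14.6% and 27.9% in enalapril-treated animals. PCT was above PST in 4 of 11 rats, and the difference ran from -5.75 to 1.86 percentage points. Lean rat 2 and treated rat 1 were the lowest in both types. Scores also separated PCT from the joint class: mean S and G2M scores were lower in PCT than in PCT/PST in 11 of 11 rats. PCT was also the deeper of these 2 types in 11 of 11, and the part of depth was not tested. Against PST the order was mixed, with PCT higher in 3 of 11 rats in the S score and in 4 in the G2M score.

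Whether the change between groups differed between PCT and these neighbours was tested on the difference within each rat. The obese minus lean change in mitochondrial percent was larger in PCT than in PCT/PST by 6.77 ± 3.07 percentage points (limma, adjusted p = 0.0765) and larger than in PST by 2.26 ± 2.06 (limma, adjusted p = 0.312). Neither passed, and without lean rat 2 they were 4.27 ± 2.75 and 3.04 ± 2.01 (limma, adjusted p = 0.212 for both). For treated minus obese rats the corresponding values were -3.15 ± 3.31 (limma, adjusted p = 0.664) and 0.73 ± 2.22 (limma, adjusted p = 0.803). None of the tests of UMIs and genes against PCT/PST or PST passed in any comparison, with limma adjusted p from 0.499 to 0.965. The mitochondrial changes were compared in percentage points only. From lean to obese rats the mean went from 10.9% to 21.5% in PCT and from 1.95% to 5.77% in PCT/PST. Change relative to the lean value was not tested.

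**Figure D4:**
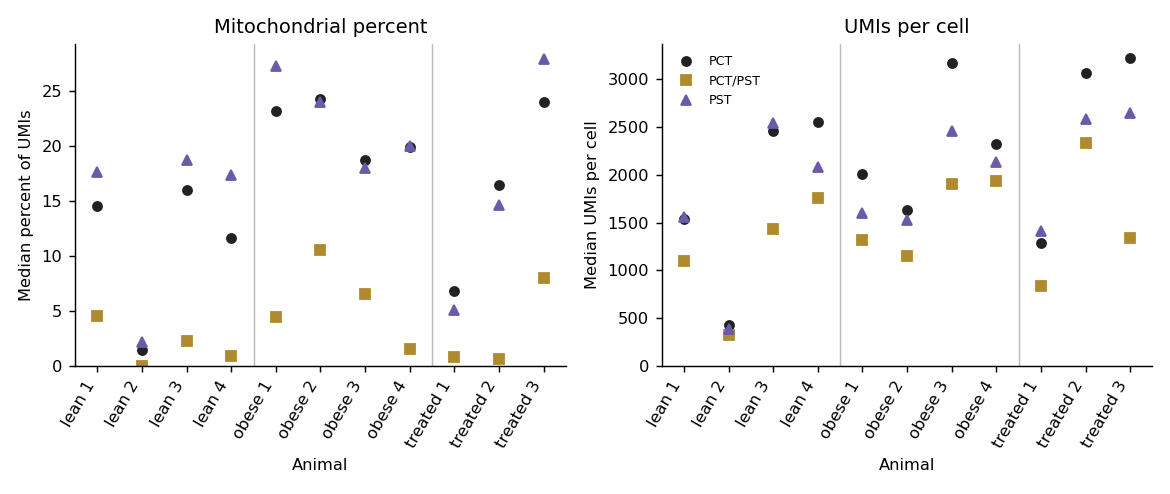
Median percent of mitochondrial UMIs (left) and median UMIs per cell (right) of PCT, PCT/PST and PST cells in each rat, 1 symbol per cell type. PCT lies above PCT/PST in both measures in 11 of 11 rats, and above PST in mitochondrial percent in 4 of 11.

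Over all 15 other types with enough cells, the change in mitochondrial percent from lean to obese rats differed from that of PCT in 7 (46.7%), by limma with adjustment over the types. PCT changed more than 6 of these, by 5.83 to 10.3 percentage points, and less than DCT (distal convoluted tubule), by -18.0 ± 3.08 (limma, adjusted p = 0.000893). DCT was singled out after its value was seen. That count depended on single rats: it was 3 without lean rat 2 or obese rat 2, 2 without lean rat 4, obese rat 1 or obese rat 3, and 9 without treated rat 1. For treated minus obese rats it was 0 of 15 (0%), also at an unadjusted p under 0.05. For treated minus lean rats it was 2 of 15 (13.3%), DCT and DCT/CNT, both named after their values were seen. Their number was 5 without obese rat 4, 3 without lean rat 2 or treated rat 1, and 1 without treated rat 2.

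In UMIs, PCT changed less from lean to obese than 2 of 15 types (13.3%), namely DTL (descending thin limb, -1.14 ± 0.19 on the log2 scale, limma adjusted p = 0.000594) and Macro (macrophages, -0.68 ± 0.16, limma adjusted p = 0.00573). From obese to treated rats its change lay above that of 4 of 15 (26.7%), the types Macro, Mono (monocytes), T cell and GEC (glomerular endothelial cells), by 0.59 to 0.76. Those types are immune or endothelial, and all of them were named after their values were seen. Their number was 1 without obese rat 2, treated rat 1 or treated rat 3, and 7 without obese rat 4. For treated minus lean rats only DTL passed, at -0.82 ± 0.21 (limma, adjusted p = 0.0224; 6.67%). That call was lost without lean rat 3 or 4 or any 1 of the treated rats. Without obese rat 4 the first count was 6 types. Gene numbers gave counts of 2, 4 and 1 types (13.3%, 26.7% and 6.67%). Their first count was 5 without obese rat 4 and 1 without lean rat 2, lean rat 4 or obese rat 2, and their second was 0 without obese rat 2, treated rat 1 or treated rat 3. The third was 0 without lean rat 2, 3 or 4, obese rat 3 or any 1 of the treated rats.

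Among the 17 to 20 types with enough cells in a rat, PCT ranked between place 6 and 13 in median UMIs, with a median place of 9. It ranked between 5 and 14 in genes and between 4 and 9 in mitochondrial percent, with a median place of 6. In G2M calls its place was 12 to 18 and in S calls 9 to 20. PCT was thus intermediate in depth and in the lower part of the order in G2M calls in every rat. In mitochondrial share it was in the upper part except in lean rat 2, where it stood in the middle, at place 9 of 17.

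On the authors' map, whose axes have no unit and which was made from genes of the same cells, PCT formed 1 area shared by all rats. Centres of the 11 rats lay 0.124 to 1.25 apart, against 5.83 from the PCT centre to that of PST and 6.76 to that of PCT/PST. Of the 15 nearest map neighbours of a PCT cell, 96.9% were PCT on average. Neighbours of other types were PCT/PST in 58.3%, PST in 11.5% and TAL (thick ascending limb) in 11.1% of cases. Only 453 PCT cells (1.24%) had mostly neighbours of other names. A map neighbour of a PCT cell, of any type, came from the same rat 1.06 to 1.31 times as often as that rat's part of all PCT cells gives.

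Inside that area, depth and mitochondrial share were laid out along the second map coordinate. PCT cells of all rats were divided along it into 4 bands of equal size. Median UMIs went up from band to band in 11 of 11 rats, for example 955, 1152, 1851 and 3454 in lean rat 1 and 1120.5, 2288, 4097 and 6554.5 in treated rat 3. Mitochondrial percent went down through all bands in 10 of 11 rats, and its top band was below its bottom band in 11. In lean rat 1 the medians were 31.8%, 19.6%, 12.1% and 4.99%, and in obese rat 1 they were 32.1%, 28.0%, 20.2% and 11.6%. The bottom bands of these rats were close, and the top band was lower in the lean rat. Spearman's rho of the coordinate with UMIs was 0.569 in lean rat 2 and up to 0.862 in treated rat 1, and rho with mitochondrial percent was -0.680 to -0.322 over the rats, as descriptions across cells of 1 library.

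Obese rats had more of their PCT cells in the bottom band, which had the lowest median UMIs of the 4 bands within each rat. This does not make their PCT cells shallower than those of lean rats. Cells under 1000 UMIs were 23.9%, 99.7%, 8.40% and 7.99% of PCT cells in lean and 18.8%, 25.2%, 8.84% and 14.0% in obese rats, which overlapped. Lean rat 2, the shallowest library, had the smallest share in the bottom band. The bottom band held 22.6%, 17.5%, 23.2% and 24.6% of PCT cells for the lean rats, 29.3%, 28.8%, 26.1% and 27.5% for the obese ones, and 23.7%, 24.5% and 25.1% for those on enalapril. The 4 obese rats lay above all other rats, without a test. The top band held 25.9% to 27.3% in lean, 19.6% to 24.9% in obese and 24.6% to 28.0% in treated rats.

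Along the first coordinate the medians of PCT cells were -0.51, -0.54, -0.71 and -1.01 across the lean group, -1.38, -1.54, -1.18 and -1.07 across the obese group, and -0.60, -0.94 and -0.80 across the treated group. Obese rats lay below every lean and every treated rat, by a distance that is small against that to the next type. The area was also divided at the median of both coordinates. Its upper right part held 30.9% to 42.1% of PCT cells in lean, 21.0% to 32.4% in obese and 31.7% to 37.2% in treated rats, so that lean and obese rats overlapped there. No test was made of map positions. At the same band of the second coordinate obese rats were not deeper or shallower throughout: in the bottom band the medians were 334 to 1488.5 UMIs in lean and 805 to 1248 in obese rats.

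**Figure D5:**
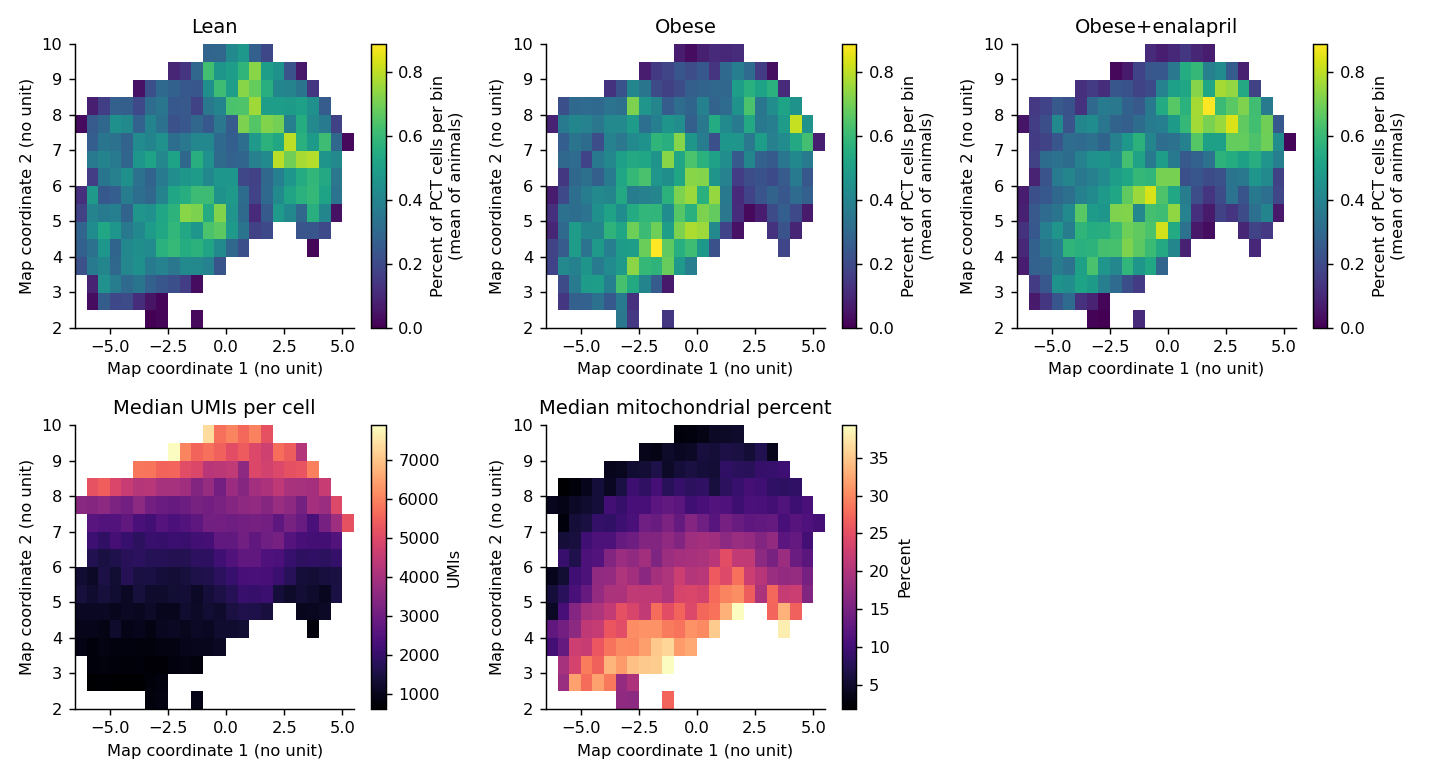
The authors' map cut into squares of 0.5 by 0.5 (coordinates without unit), coloured in the top row by the percent of a group's PCT cells in each square as the mean of its rats, and in the bottom row by median UMIs and median mitochondrial percent over PCT cells of all rats; squares under 20 PCT cells are left blank. UMIs go up and mitochondrial percent goes down along the second coordinate, as they do through its 4 bands in 11 and 10 of the 11 rats.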

How the data were processed

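The table deposited by the authors has 1 line per cell. Per the file headers, it gives each cell counts of UMIs and of genes with a UMI, which are whole numbers. The mitochondrial share is a percent deposited by the authors. Multiplied by the deposited UMIs it came within 0.01 of a whole number in 1.95% of PCT cells above 0, so that it was made from other totals than those UMIs. The authors also gave an S score, a G2M score and map coordinates, by methods that the sources used here do not state. Named without a role in the submitters' processing notes are the build rn6, Seurat 4.3.0 and Cell Ranger 7.0.1. Filters on cells and the genes behind the type names are not stated in those sources. All cells of the table were kept, and each was assigned to its rat by the sample code in the labels.

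The rat was the replicate throughout. Cells per type and rat were tested with edgeR 4.0.16 (quasi-likelihood, robust, no abundance trend, totals as library size, types with a mean of at least 10 cells per rat), and per-rat medians, means and percents with limma 3.58.1 over the types with at least 20 cells in every rat. Medians of UMIs and genes were log2-transformed. All groups entered 1 fit with 3 contrasts that share groups, and p-values were adjusted by Benjamini-Hochberg over types within a contrast, with a threshold of 0.05. Values after ± are SE beside a test and SD beside a mean. For edgeR the SE is the absolute log2 difference divided by the square root of F. Alternatives were DESeq2 1.42.0, TMM factors, limma on logit shares, no low-count filter, non-immune cells as denominator, means for medians, cells of at least 1000 or of 1000 to 2000 UMIs, at least 50 cells, a replicate block, exact permutation tests and leaving out each rat. Intervals of shares are exact Clopper-Pearson at 95%. The scripts were tested on simulated data. R 4.3.3 ran the fits, and Python 3.11.15 with pandas 2.3.3 and numpy 2.4.6 the tables, with matplotlib 3.10.9 for figures and scipy 1.17.1 for intervals.

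The cell type, the comparisons and the alternatives were chosen with earlier results of these data known. PCT/PST and PST were named by rule as the most similar types, and other types only as neighbours in an order or on the map, as the highest or lowest, or where stated. PCT, PST, TAL, DCT, DTL and the like have their usual meaning in the kidney field, though the table holds the short names only.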

Additional observations from a re-analysis of the deposited data

Results flagged for a closer look

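In 3 measures of PCT cells, lean rat 2 lay farther from the other lean rats than Dixon's critical value of 0.829 for 4 samples allows. Its share of cells called S was 9.17%, where the other lean rats had 24.8% to 27.4%. Its share called G2M was 17.2%, against 12.4% to 12.8%, and its mean G2M score was -0.0186, against -0.0343 to -0.0327. These came from 22 groups of values that were checked, of which chance alone flags about 1 in 20. Beside them stands a median of 428.5 UMIs per PCT cell in that rat, the lowest of all 11, and the part of depth in these values was not tested. Among PCT cells under 1000 UMIs, not matched further, its G2M calls were the lowest of the lean rats. They were 17.2%, against 18.4%, 25.9% and 21.2% in lean rats 1, 3 and 4. Its S calls were the lowest there too, at 9.19% against 16.2%, 17.1% and 14.8%.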

How the results depend on the processing

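Of 736 values recomputed under other settings, 647 kept their direction and their side of the threshold or, for counts, stayed within 1.5 times. For cells of at least 1000 UMIs, treated minus lean rats gave -0.013 (log2) for the PCT share of proximal tubule cells, 1.91 percentage points for cells under 10% mitochondrial UMIs and -0.772 for S calls. For cells of 1000 to 2000 UMIs, which lose lean rat 2, that comparison gave -1.48 percentage points for mitochondrial percent, 6.90 for cells under 10%, -0.309 for S calls, 0.00157 for the S score and -1.77 for mitochondrial percent against PCT/PST. The same range gave -0.023 (log2) for genes in obese minus lean rats and 0.0071 for genes against PST in treated minus obese rats. Non-immune cells as denominator gave 0.068 for obese minus lean rats, and DESeq2 called the shares of proximal tubule cells at -0.25 and 0.27. The cause was not tested. The values without lean rat 2 for the non-immune share and for PCT against PCT/PST and PST were added after seeing the data.

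Replicate numbers were not taken as pairs, since 5 of 10 pairs with the same number did not correlate above 0.1 (-0.472 to 0.513). As a hint from the data, 8 of 11 rats correlated best with their own number. With the replicate block the PCT share of all cells passed for treated minus obese rats (0.85 ± 0.24, edgeR adjusted p = 0.0463), treated minus lean rats gave 5.68e-05 for the S score and -0.000218 for the G2M score, and it changed no other call of PCT itself.

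The number of types whose change differed from that of PCT moved most. In UMIs, obese minus lean rats gave 5 with means, 1 with at least 50 cells and 0 by exact permutation, treated minus obese rats 1 with the replicate block, and treated minus lean rats 0 with means, at least 1000 UMIs, at least 50 cells or the replicate block. In genes, obese minus lean rats gave 7, 1 and 0 in that order and 1 at 1000 to 2000 UMIs, treated minus obese rats 1 with the replicate block and 2 at 1000 to 2000 UMIs, and treated minus lean rats 0 in the same 4 settings. In mitochondrial percent, obese minus lean rats gave 3 with means, 2 at 1000 UMIs or more, 0 by exact permutation and 1 at 1000 to 2000 UMIs, where treated minus lean rats gave 1. After adjustment over 15 types, 4 against 4 rats may not reach the threshold by permutation.

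Leaving out each rat in turn, these counts ran from 2 to 6, 1 to 7 and 0 to 1 in UMIs, 1 to 5, 0 to 5 and 0 to 1 in genes, and 2 to 9 (obese minus lean) and 1 to 5 (treated minus lean) in mitochondrial percent. Treated minus lean rats ran from -0.023 to 0.047 in the share of proximal tubule cells, -1.76 to 4.49 percentage points in S calls, -0.000786 to 0.000469 in the S score and -0.000874 to 0.00434 in the G2M score. Treated minus obese rats ran from -0.16 to 0.50 in UMIs and -0.10 to 0.33 in genes (log2) and from -2.16 to 0.105 percentage points in G2M calls. Obese minus lean rats ran from 7.44 to 12.3 percentage points in mitochondrial percent, -38.3 to -19.6 in cells under 10% and 0.000958 to 0.00617 in the G2M score. The low depth of lean rat 2 limits what these lean rats can show.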
